A study of Homo sapiens with 8 samples.

Results

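Immediate early genes are transcribed within minutes of a growth factor, serum or stress signal, without the need for new protein synthesis. Kinases of the ERK, JNK and p38 pathways act on factors already bound at their promoters, such as SRF with its ELK partners and CREB, and the short-lived mRNAs are then removed through AU-rich elements. Their products are themselves mostly transcription factors: FOS and JUN proteins pair to form AP-1, EGR1 binds GC-rich sites, MYC pairs with MAX, and DUSP1 removes the activating phosphates from the same kinases. In lung cancer lines these genes are read as a sign of growth factor and stress signalling.

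The 10 genes described here were chosen by name: IER2, IER3, EGR1, FOS, FOSB, FOSL1, JUN, JUNB, MYC and DUSP1. They are 10 of the 31461 genes listed in the deposited table, and all 10 were found in it. Of these, 7 had at least 1 FPKM (fragment counts divided by transcript length and by the library's mapped total) in at least 2 of the 8 libraries and were tested among 14635 genes. The other 3, FOS, FOSB and MYC, were below that level and are given by their values only.

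The libraries were made from total RNA of 2 human lung cancer lines, A549 (from an adenocarcinoma) and H1299 (from a large cell carcinoma), both with the genotype WT in the labels. Each line was transfected with miR-29a-3p, labelled miR-29a-3p-overexpressed, or with a control microRNA, labelled Control, and each of the 4 groups held 2 libraries. The study asked which genes miR-29a-3p may target in these cells. The sources used here give neither the dose nor the hours between transfection and harvest, so the time since any stimulus of these fast genes is not known. Nothing in the labels says whether the 2 libraries of a group came from separate cultures, so the p-values measure the spread between libraries, which may be technical.

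The libraries held an estimated 12221310 to 15614821 fragments. Marker genes lay opposite to the line labels. CDKN2A, which is deleted in A549, stood at 27.8 and 28.4 FPKM in the miR-29a-3p libraries labelled A549 and at 23.8 and 24.8 FPKM in their controls, against at most 0.112 FPKM in every library labelled H1299. Of 8 genes listed beforehand as A549 markers, 6 were higher in the controls labelled H1299. SFTPB was at most 0.015 FPKM in any library. GPX2 did not separate the controls, at 1.16 and 2.38 FPKM in those labelled A549 against 1.01 and 2.15 FPKM in those labelled H1299. The lines are therefore named throughout by their labels, and any statement on which line responded rests on these labels. Markers of leukocytes summed to at most 1.31 FPKM and those of endothelium to at most 0.141 FPKM in any library, and fibroblast markers summed to 0.25 to 3.50 FPKM. In such bulk RNA, a change in the number of cells that express a gene and a change in RNA per cell cannot be told apart.

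The microRNA that was transfected is printed here because its seed decides which mRNAs could hold a direct site. The sequences in this section are from RefSeq on GRCh38.p14 unless another source is named, and capitals mark the seed, bases 2 to 8.
hsa-miR-29a-3p, chr7:130876748-130876769, minus strand: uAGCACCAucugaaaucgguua
Among the longest annotated 3′ UTRs (GENCODE release 29), the strongest match in any of the 10 genes was a 7mer-m8 site (TGGTGCT) in FOS. IER2, IER3 and JUN held a 6mer (GGTGCT) and the other 6 genes held none of these letters. Over 19132 genes with a 3′ UTR, the strongest match was an 8mer in 3.1%, a 7mer-m8 in 11.3% and a 6mer in 13.1%, while 69.8% held none. The FOS and IER2 sites are shown, with the match in capitals. FOS has the strongest match, and IER2 was lower by the most among the 10 in the A549-labelled miR-29a-3p libraries. In the same libraries JUN, which also holds a 6mer, was called higher and IER3 was not called. Whether miR-29a-3p acts on any of these sites was not tested.
FOS site, GENCODE release 29 on GRCh38, chr14:75281789-75281795 within the line, plus strand: tggaattaaccTGGTGCTggatattttcaa
IER2 site, GENCODE release 29 on GRCh38, chr19:13154117-13154122 within the line, plus strand: ctgcgcccacaGGTGCTgtcttagtggact

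Promoters were available for 7 of the 10 genes (IER2, EGR1, FOS, FOSB, JUN, JUNB and DUSP1). The 180 bases before the start of EGR1, JUNB, JUN and DUSP1 are printed because the first pair were higher with miR-29a-3p in both lines and the second pair moved in opposite directions. Capitals mark matches to the CArG box, the CRE (TGACGTCA) or its half-site (TGACG), each on either strand, and to TATAA on the sense strand.
EGR1, chr5:138465299-138465478, plus strand: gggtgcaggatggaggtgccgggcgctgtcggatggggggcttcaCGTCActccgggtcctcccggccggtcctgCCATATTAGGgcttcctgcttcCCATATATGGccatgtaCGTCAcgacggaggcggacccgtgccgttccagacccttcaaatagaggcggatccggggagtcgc
JUNB, chr19:12791306-12791485, plus strand: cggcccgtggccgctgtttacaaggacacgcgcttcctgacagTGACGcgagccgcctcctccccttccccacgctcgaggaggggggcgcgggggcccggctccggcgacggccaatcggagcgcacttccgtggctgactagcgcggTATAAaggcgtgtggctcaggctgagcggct
JUN, chr1:58784048-58784227, minus strand: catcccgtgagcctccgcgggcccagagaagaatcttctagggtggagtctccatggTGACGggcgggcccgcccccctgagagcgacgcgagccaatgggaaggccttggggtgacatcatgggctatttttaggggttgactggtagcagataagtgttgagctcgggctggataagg
DUSP1, chr5:172771196-172771375, minus strand: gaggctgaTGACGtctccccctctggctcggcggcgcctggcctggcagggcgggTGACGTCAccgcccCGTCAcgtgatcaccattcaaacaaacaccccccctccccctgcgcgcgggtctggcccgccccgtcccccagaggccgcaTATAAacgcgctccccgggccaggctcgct
Within 250 bases of the start, the CArG box, bound by SRF, was matched in EGR1 alone of the 7, with matches starting at positions -105 and -83 from the start, and in 1.16% of 35116 promoters. The full CRE, bound by CREB and its relatives, was matched in DUSP1 alone, at position -125, and in 1.65% of promoters; each full CRE also contains a half-site on both strands. The half-site was matched in 7 of 7, against 21.22% of promoters. TATAA was matched in 4 (FOS, FOSB, JUNB and DUSP1), against 13.64% of promoters. The AP-1 site (TGACTCA on either strand) was matched in 0 of 7, against 4.2%. Variants of it, such as the letters tgacatca in the JUN line, were not searched for. The ETS sequence CCGGAA, on either strand and with shorter ETS cores not searched for, was matched in IER2 and FOSB, against 14.53%. These are matches of letters in a window and are not evidence of binding.

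The levels of the 10 genes differed widely, and most were stable between libraries of a group. In the A549-labelled controls FOSL1 was the most abundant of the 10 at 60.6 ± 4.64 FPKM (SD, n = 2), followed by JUNB at 54.4 ± 1.8 FPKM, a gap smaller than the sum of their SDs. In the H1299-labelled controls DUSP1 came first at 417.8 ± 6.14 FPKM, then IER3 at 148.8 ± 2.0 FPKM and JUNB at 95.9 ± 2.07 FPKM (SD, n = 2 each). By mean, FOS, FOSB and MYC were the 3 lowest in all 4 groups, although 1 MYC library reached 3.35 FPKM.

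**Figure D1:**
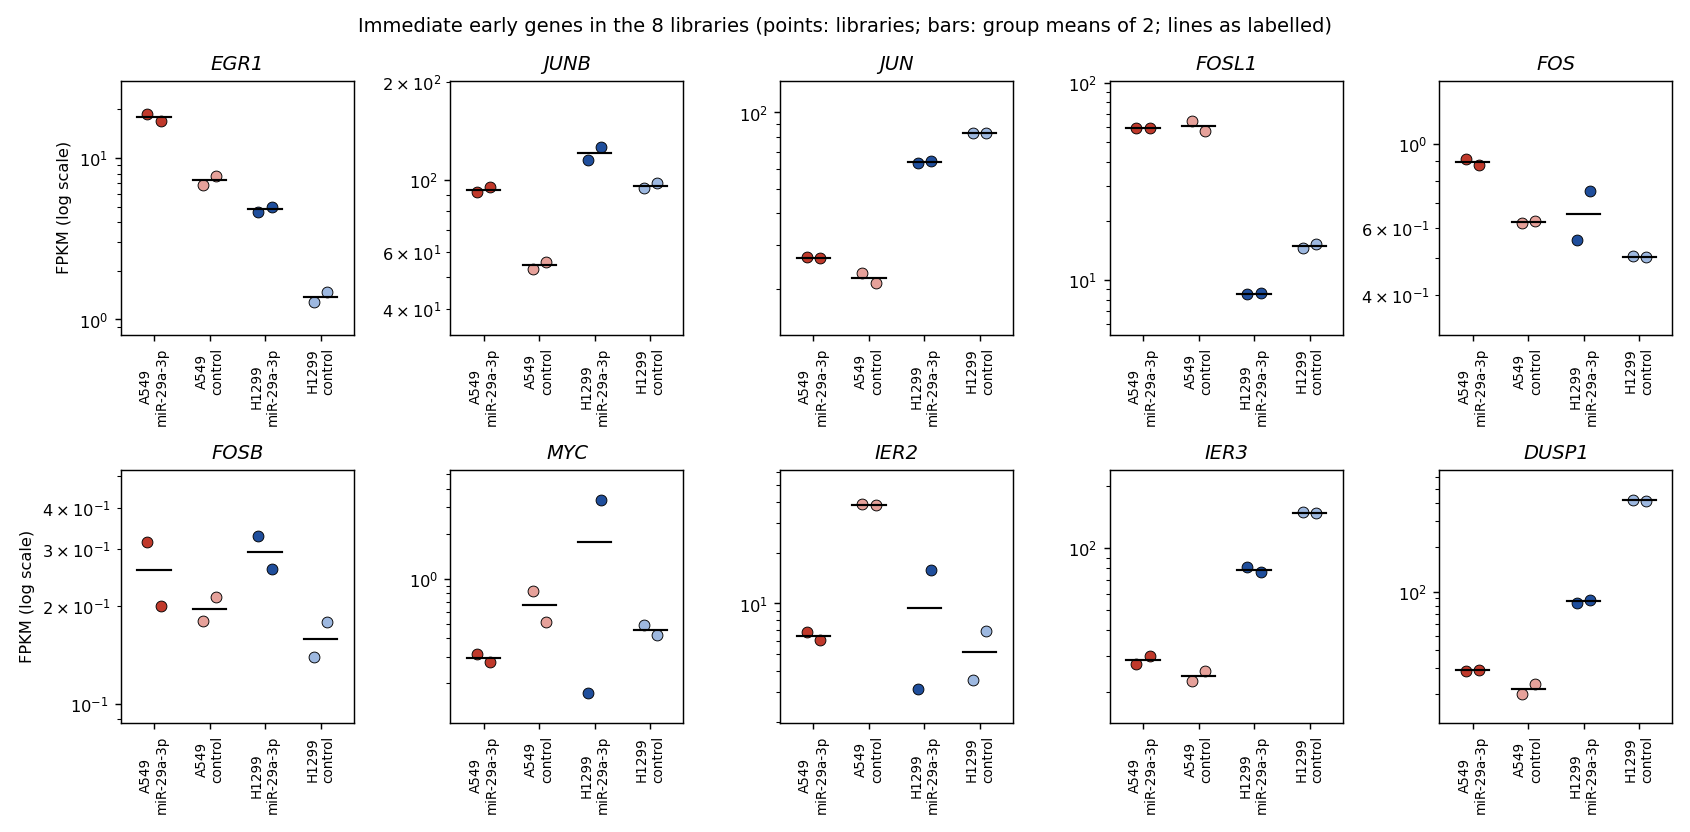
Level of each of the 10 immediate early genes in FPKM on a log axis, one panel per gene, with points for the 8 libraries and bars for the mean of the 2 libraries of a group; lines are named as labelled. EGR1 and JUNB stand higher with miR-29a-3p in both lines, DUSP1 and IER3 stand lower in the H1299-labelled libraries, and IER2 and MYC have libraries far apart in the H1299-labelled miR-29a-3p group.

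In the A549-labelled libraries, EGR1, JUNB, JUN and DUSP1 rose with miR-29a-3p and IER2 fell, while IER3 and FOSL1 did not pass the test. Thus 4 of 7 tested genes were higher, against 7.3% of all 14635 genes, and 1 of 7 was lower, against 8.66%. In the H1299-labelled libraries EGR1 and JUNB rose, and IER3, FOSL1, JUN and DUSP1 fell. There 2 of 7 were higher, against 25.1% of all genes, and 4 of 7 were lower, against 24.8%. The median change of the 7 genes on the log2(FPKM + 1) scale was 0.26 in the A549-labelled and -0.38 in the H1299-labelled libraries, beside medians over all tested genes of 0.0014 and 0.0012. A gene was called at an adjusted p under 0.05 from limma with Benjamini-Hochberg adjustment over all tested genes. Leaving out 1 library lowered the 5 calls in the A549-labelled libraries to 2 without miR-29a-3p library 1 or library 2 and to 3 without control library 2, while the 6 calls in the H1299-labelled libraries stayed at 6 or 7 whichever library was left out.

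**Figure D2:**
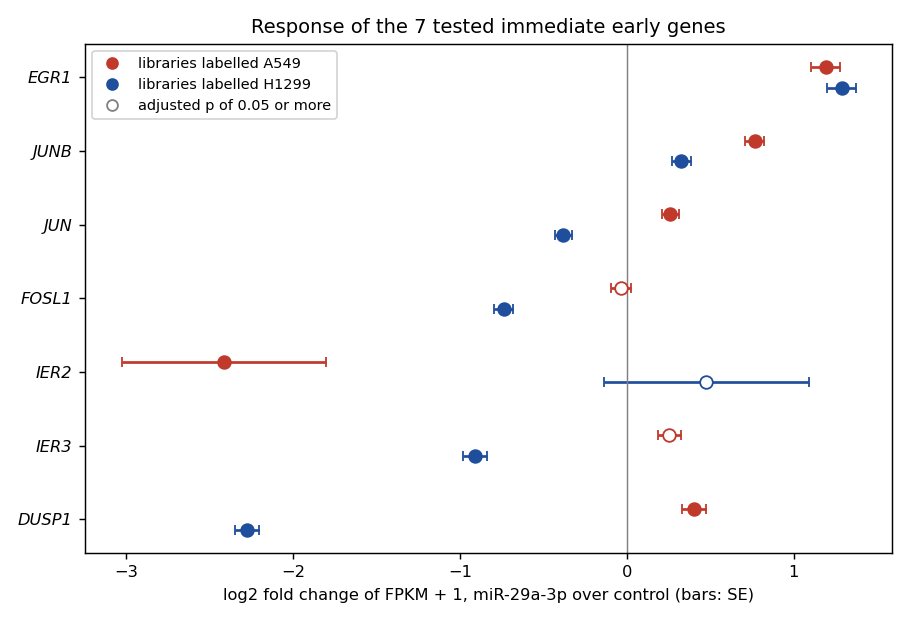
Log2 fold change of FPKM + 1, miR-29a-3p over control, for the 7 tested genes, with bars for the standard error from limma and open points for an adjusted p of 0.05 or more; red is A549-labelled, blue is H1299-labelled. EGR1 lies at 1.19 and 1.28 and JUNB at 0.77 and 0.33, whereas DUSP1 lies at 0.40 in the A549-labelled and at -2.27 in the H1299-labelled libraries.

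EGR1 (ENSG00000120738, chr5:138465490-138469315, GRCh38, plus strand) encodes a zinc finger factor that is a classic readout of ERK signalling through SRF. It stood at 18.71 and 16.97 FPKM in the A549-labelled miR-29a-3p libraries, against 6.79 and 7.74 FPKM in their controls. Both treated libraries were above both controls. The change was 1.19 ± 0.085 on the log2(FPKM + 1) scale (SE, limma, adjusted p = 0.00079), a ratio of mean FPKM of 2.46. The H1299-labelled libraries held EGR1 at 4.66 and 4.96 FPKM with miR-29a-3p, against 1.29 and 1.49 FPKM in controls, again without overlap. That change was 1.28 ± 0.085 (SE, limma, adjusted p = 7.8e-05), a ratio of 3.47. The difference between the lines in this response, -0.10 ± 0.121 (SE), did not pass the test (limma, adjusted p = 0.57). It ranged from -0.44 to -0.01 over 14 alternatives and was called in none. Because the scale understates changes of low genes, such as EGR1 in the H1299-labelled controls, equal responses are not shown. EGR1 was called in both lines under every alternative setting that was run.

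JUNB (ENSG00000171223, chr19:12791496-12793315, GRCh38, plus strand, a single exon) encodes a JUN family subunit of AP-1 that is a weaker activator than JUN and can restrain it. It stood at 91.7 and 94.7 FPKM in the A549-labelled miR-29a-3p libraries, against 53.1 and 55.7 FPKM in their controls. The groups did not overlap, and the change was 0.77 ± 0.056 (SE, limma, adjusted p = 0.00079), a ratio of 1.71. With miR-29a-3p the H1299-labelled libraries held 115.1 and 126.1 FPKM, against 94.4 and 97.4 FPKM in controls. These did not overlap either, and the change was 0.33 ± 0.056 (SE, limma, adjusted p = 0.0034), a ratio of 1.26. The rise was larger in the A549-labelled libraries by 0.44 ± 0.079 (SE, limma, adjusted p = 0.0065). JUNB shares 259 of its 1820 exon bases (14.2%) with HOOK2 on the opposite strand, and no source used here states whether counting used strand. HOOK2 was at 1.23 to 1.57 FPKM.

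JUN (ENSG00000177606, chr1:58780788-58784327, GRCh38, minus strand, a single exon) encodes the main activating partner in AP-1 and is a target of the JNK kinases. It stood at 26.9 and 26.6 FPKM in the A549-labelled miR-29a-3p libraries, against 23.2 and 21.2 FPKM in their controls. These did not overlap, and the rise of 0.26 ± 0.051 (SE) passed the test (limma, adjusted p = 0.02). It did not pass without miR-29a-3p library 1 (adjusted p = 0.088), miR-29a-3p library 2 (adjusted p = 0.074) or control library 2 (adjusted p = 0.07), each from limma. The H1299-labelled libraries held JUN at 62.9 and 64.2 FPKM with miR-29a-3p, against 82.7 and 83.2 FPKM in controls. Here both treated libraries were below both controls, and JUN fell by 0.38 ± 0.051 on the log2 scale (SE, limma, adjusted p = 0.0012). The 2 responses differed by 0.64 ± 0.072, A549 minus H1299 (SE, limma, adjusted p = 0.0011).

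FOSL1 (ENSG00000175592, chr11:65892049-65900573, GRCh38, minus strand) encodes FRA1, the FOS family subunit that accumulates when ERK signalling is sustained. It stood at 59.1 and 58.9 FPKM in the A549-labelled miR-29a-3p libraries, against 63.9 and 57.3 FPKM in their controls. The treated libraries lay between the controls, and the change of -0.04 ± 0.060 (SE) did not pass the test (limma, adjusted p = 0.73). FOSL1 in the H1299-labelled libraries stood at 8.49 and 8.60 FPKM with miR-29a-3p, against 14.6 and 15.3 FPKM in controls. These did not overlap, and FOSL1 fell by 0.74 ± 0.060 on the log2 scale (SE, limma, adjusted p = 0.00016). The difference between the responses was 0.70 ± 0.084, A549 minus H1299 (SE, limma, adjusted p = 0.0014).

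FOS (ENSG00000170345, chr14:75278774-75282230, GRCh38, plus strand), the founding partner of JUN in AP-1, was low throughout. It stood at 0.916 and 0.879 FPKM in the A549-labelled miR-29a-3p libraries, against 0.620 and 0.626 FPKM in their controls. With miR-29a-3p the H1299-labelled libraries held 0.559 and 0.754 FPKM, against 0.507 and 0.504 FPKM in controls. The treated libraries were above the controls in both lines, with 28.1 to 44.5 estimated fragments against 19.9 to 26.0. FOS was not part of the tested set. With no filter on low values its changes were 0.23 (limma, adjusted p = 0.17) in the A549-labelled and 0.14 (limma, adjusted p = 0.3) in the H1299-labelled libraries, so neither passed. Whether miR-29a-3p acts on the FOS site printed above was not tested.

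FOSB (ENSG00000125740, chr19:45467995-45475179, GRCh38, plus strand), a further FOS family subunit, had the lowest mean of the 10 in every group, with 12.1 to 28.3 estimated fragments per library. It stood at 0.315 and 0.201 FPKM in the A549-labelled miR-29a-3p libraries, against 0.180 and 0.213 FPKM in their controls. These overlapped. With miR-29a-3p the H1299-labelled libraries held 0.328 and 0.260 FPKM, against 0.140 and 0.179 FPKM in controls. These did not overlap, and with no filter on low values the change of 0.16 did not pass (limma, adjusted p = 0.12).

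MYC (ENSG00000136997, chr8:127735434-127741434, GRCh38, plus strand), the growth-promoting factor that pairs with MAX, was also low and had the widest ratio between libraries of a group among the 10. It stood at 0.312 and 0.280 FPKM in the A549-labelled miR-29a-3p libraries, against 0.822 and 0.514 FPKM in their controls. The treated libraries were below the controls, but with no filter the change of -0.36 did not pass the test (limma, adjusted p = 0.87). MYC in the H1299-labelled libraries stood at 0.172 and 3.35 FPKM with miR-29a-3p, against 0.493 and 0.420 FPKM in controls. The treated libraries thus lay on both sides of the controls and differed 19.4-fold from each other, with 8.0 and 156.8 estimated fragments, so no direction can be read. The neighbouring PVT1 stood at 3.0 and 2.5 FPKM in the same libraries. How the deposited values assign fragments to MYC was not tested, so its low level is that of the table only.

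IER2 (ENSG00000160888, chr19:13150415-13154908, GRCh38, plus strand) encodes a small nuclear protein induced by serum. It stood at 6.78 and 6.05 FPKM in the A549-labelled miR-29a-3p libraries, against 38.6 and 38.3 FPKM in their controls. Libraries of each group lay close together and the groups were 6.0-fold apart. The change was -2.41 ± 0.612 (SE, limma, adjusted p = 0.045), the largest in size of the 7 in this line with by far the largest SE, since its libraries in the other line lie apart and 1 spread is estimated per gene over the 4 groups. IER2 in the H1299-labelled libraries stood at 3.12 and 15.7 FPKM with miR-29a-3p, against 3.52 and 6.88 FPKM in controls. The treated libraries lay on both sides of the controls, and the change of 0.48 ± 0.612 (SE) did not pass (limma, adjusted p = 0.56). The value there rests on which library is kept: it was 1.49 (limma, adjusted p = 0.015) without miR-29a-3p library 1 and -0.53 (limma, adjusted p = 0.23) without miR-29a-3p library 2. In the A549-labelled libraries the call was kept in 7 of 15 alternatives, including the fit of these libraries alone. It was lost in the other 8. Among them, the adjusted p from limma was 0.14 or 0.15 without any 1 of the 4 A549-labelled libraries and 0.064 without either H1299-labelled control.

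IER2 is also uncertain in its counting. It shares 946 of 3072 exon bases (30.8%) with AC011446.2 on the opposite strand, which was at 0 to 0.448 FPKM. The adjacent STX10 stood at 2.75 and 2.81 FPKM in the H1299-labelled miR-29a-3p libraries, where IER2 differed 5.03-fold. The difference between the responses, -2.89 ± 0.865 (SE, limma, adjusted p = 0.041), was lost in 8 of 14 alternatives, with adjusted p from limma of 0.092 to 0.10 without any 1 A549-labelled library, 0.11 without H1299-labelled control 1 and 0.057 without H1299-labelled control 2. Its value was -3.90 without H1299-labelled miR-29a-3p library 1 and -1.88 without library 2 of that group.

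IER3 (ENSG00000137331, chr6:30743199-30744554, GRCh38, minus strand) encodes a stress-induced regulator of cell survival and of ERK signalling. It stood at 27.388 and 30.005 FPKM in the A549-labelled miR-29a-3p libraries, against 22.6 and 25.3 FPKM in their controls. These did not overlap, but the change of 0.25 ± 0.070 (SE) did not pass the test (limma, adjusted p = 0.057). IER3 in the H1299-labelled libraries stood at 81.1 and 76.6 FPKM with miR-29a-3p, against 150.2 and 147.4 FPKM in controls. Both treated libraries were far below both controls, and IER3 fell by 0.91 ± 0.070 on the log2 scale (SE, limma, adjusted p = 0.00013). The responses differed by 1.16 ± 0.099, A549 minus H1299 (SE, limma, adjusted p = 0.00043). IER3 shares 359 of 1356 exon bases (26.5%) with IER3-AS1 on the opposite strand, which was at 0 to 1.93 FPKM.

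DUSP1 (ENSG00000120129, chr5:172768090-172771195, GRCh38, minus strand), the nuclear phosphatase that switches off p38, JNK and ERK, showed the largest change of the 7 in the H1299-labelled libraries. It stood there at 83.5 and 87.7 FPKM with miR-29a-3p, against 422.1 and 413.4 FPKM in controls. The groups were 4.88-fold apart and far from overlapping, and DUSP1 fell by 2.27 ± 0.071 on the log2 scale (SE, limma, adjusted p = 9.8e-06). In the A549-labelled libraries it stood at 28.8 and 29.3 FPKM with miR-29a-3p, against 20.2 and 23.5 FPKM in controls. These did not overlap and lay in the other direction, a rise of 0.40 ± 0.071 (SE, limma, adjusted p = 0.015). That rise did not pass without miR-29a-3p library 1 (limma, adjusted p = 0.065) or library 2 (limma, adjusted p = 0.072). The 2 responses differed by 2.67 ± 0.10, A549 minus H1299 (SE, limma, adjusted p = 4.1e-05). DUSP1 has no miR-29 seed match in its annotated 3′ UTR.

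Tested directly, the response was higher in the A549-labelled than in the H1299-labelled libraries for 5 of the 7 genes (IER3, FOSL1, JUN, JUNB and DUSP1), against 18.1% of all tested genes, and lower for IER2, against 19.2%. EGR1 did not pass. The median difference of the 7 was 0.64 on the log2(FPKM + 1) scale, beside 0.0041 over all tested genes. Except for IER2, these calls were kept in all 14 alternatives in which the difference could be fitted.

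The lines also differed without miR-29a-3p, in the libraries transfected with a control microRNA. In the controls, IER2, EGR1 and FOSL1 were higher in the A549-labelled libraries, which is 3 of 7 against 45.0% of all genes, and IER3, JUN, JUNB and DUSP1 were lower, which is 4 of 7 against 29.8%. DUSP1 had the widest gap, with 20.2 and 23.5 FPKM in the A549-labelled against 422.1 and 413.4 FPKM in the H1299-labelled controls, 19.1-fold lower (log2 change -4.20, limma, adjusted p = 7.4e-08). IER3 was 6.22-fold lower, at -2.59 (limma, adjusted p = 3.8e-07), and JUN was 3.73-fold lower, at -1.86 (limma, adjusted p = 3.9e-07). On the other side, EGR1 was 5.24-fold higher, at 1.79 (limma, adjusted p = 3.7e-06), and FOSL1 was 4.06-fold higher, at 1.95 (limma, adjusted p = 6e-07). IER2 was 7.4-fold higher (limma, adjusted p = 0.0061), and JUNB was lower by a ratio of 1.76 (limma, adjusted p = 2e-05). Rescaling the libraries by their median ratio shifts this comparison by -0.1434 on the log2 scale, and all 7 calls were kept under it and under the other 14 alternatives. The controls serve in both this comparison and the responses, so a gene with a high control value in 1 line enters both.

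**Figure D3:**
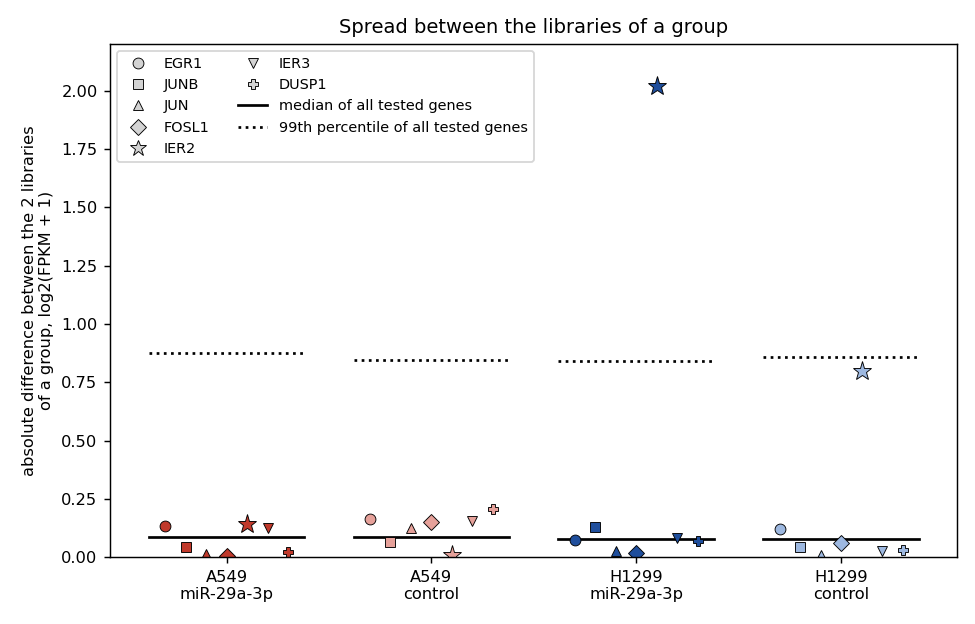
Absolute difference in log2(FPKM + 1) between the 2 libraries of each group for the 7 tested genes, with the median of all 14635 tested genes as a solid line and their 99th percentile as a dotted line. IER2 lies at 2.02 in the H1299-labelled miR-29a-3p group and at 0.80 in the H1299-labelled controls, and the other 6 genes lie at 0.21 or less in every group.

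The spread between libraries sets how these values can be read. Over all tested genes, the 2 libraries of a group differed by a median of 0.0787 to 0.0878 on the log2(FPKM + 1) scale. The 99th percentile was 0.8398 to 0.8759. IER2 differed by 2.02 in the H1299-labelled miR-29a-3p group, rank 7 of 14635 genes from the largest, and by 0.80 in the H1299-labelled controls, rank 178. In the A549-labelled groups it differed by only 0.14 with miR-29a-3p and 0.0116 in controls. The other 6 tested genes differed by 0.0066 (FOSL1, A549-labelled miR-29a-3p) to 0.2082 (DUSP1, A549-labelled controls, above 81.6% of genes). Both IER2 and MYC were higher in library 2 than in library 1 of the H1299-labelled miR-29a-3p group. Only 98 of 14635 genes differed by more than 1 on this scale between those libraries, and what set IER2 and MYC apart was not tested. Wide gaps were not confined to these genes. In the H1299-labelled controls ATF3 stood at 3.61 and 8.38 FPKM and MAFF at 3.02 and 7.22 FPKM, both among the further immediate early factors described below. Other factors of that list lay close there, such as BHLHE40 at 122.4 and 123.9 FPKM.

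The gene most alike in pattern to IER2, IER3, EGR1, FOSL1, JUN and JUNB was found by Pearson's r of log2(FPKM + 1) over the 8 libraries, which form only 4 groups and 2 lines, so the values are a description with no test. IER3 was most like CSRP1 (r = 0.9995, 938 genes above 0.95), FOSL1 like VARS1 (r = 0.9988, 1779 genes) and JUN like HEXA (r = 0.9986, 1069 genes). The 2 genes higher in both lines had fewer close matches: EGR1 was most like DDAH1 (r = 0.9935, 211 genes) and JUNB like IRF9, an interferon response factor (r = 0.9859, 35 genes). IER2 had 0 genes above 0.95 and was most like COX11 (r = 0.936).

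The genes around these 10 were examined as lists by function. Of 15 tested further immediate early transcription factors, 4 rose and 0 fell in the A549-labelled libraries (limma), against 7.3% and 8.66% of all genes, with a median of 0.30. At an unadjusted p under 0.05 these were 6 and 1, and 1 fall was called at a mean of at least 5 FPKM. In the H1299-labelled libraries 2 rose and 6 fell, against 25.1% and 24.8% of all genes, with a median of -0.27. BHLHE40, a basic helix-loop-helix repressor, had the largest rise in the A549-labelled libraries, at 36.5 and 36.5 FPKM with miR-29a-3p against 17.2 and 16.4 FPKM in controls (1.07 ± 0.042, SE, limma, adjusted p = 0.00014). In the H1299-labelled libraries NR4A2, an orphan nuclear receptor, had the largest rise, with 1.68 and 1.70 FPKM against 0.707 and 1.04 FPKM (limma, adjusted p = 0.0044). KLF2, a Krüppel-like factor, had the largest fall there, with 1.40 and 1.47 FPKM against 3.75 and 3.87 FPKM (limma, adjusted p = 9.3e-05). Like JUN and DUSP1, KLF4 and CSRNP1 of this list were called higher in the A549-labelled and lower in the H1299-labelled libraries, with changes of 0.70 and -0.39 for KLF4 and of 0.60 and -0.22 for CSRNP1; they were picked out after their values were seen.

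Of 21 tested other serum-induced early genes, 7 rose and 5 fell in the A549-labelled libraries, against 7.3% and 8.66% of all genes (list median 0.11). In the H1299-labelled libraries, 7 rose and 12 fell, against 25.1% and 24.8% of all genes (list median -0.37). CCN1, a matricellular protein induced by serum, had the largest fall in the H1299-labelled libraries, with 19.4 and 18.6 FPKM with miR-29a-3p against 92.0 and 91.0 FPKM in controls (-2.21 ± 0.038, SE, limma, adjusted p = 2.3e-06). ID1, an inhibitor of helix-loop-helix factors, had the largest rise there, with 138.0 and 145.8 FPKM against 56.6 and 59.4 FPKM (limma, adjusted p = 1.2e-05). In the A549-labelled libraries PMAIP1, which encodes the cell death protein NOXA, had the largest rise, with 70.0 and 74.4 FPKM against 42.3 and 27.6 FPKM (limma, adjusted p = 0.012). SGK1, a serum-induced kinase, had the largest fall in the same libraries, with 1.56 and 1.05 FPKM against 3.29 and 3.56 FPKM (limma, adjusted p = 0.015). As in the case of JUN and DUSP1, 3 genes of this list were called higher in the A549-labelled and lower in the H1299-labelled libraries: RHOB (0.95 and -1.42), GADD45B (0.44 and -1.41) and LIF (0.53 and -0.89). The reverse was called for ID1 (-0.80 and 1.28) and ID3 (-0.34 and 0.65). Apart from ID1, these were picked out after their values were seen. Calls in the same direction in both lines were as common. PLK3, PMAIP1 and PTGS2 were higher in both, and ERRFI1, HBEGF and SGK1 were lower in both. Of these, the A549-labelled calls of PMAIP1 and SGK1 depended on single libraries. PMAIP1 was not called without miR-29a-3p library 1 (limma, adjusted p = 0.056) or library 2 (limma, adjusted p = 0.064), nor SGK1 without miR-29a-3p library 2, control 1 or control 2 (limma, adjusted p = 0.073, 0.062 and 0.082). The list's A549-labelled counts were 4 rises without miR-29a-3p library 1, and 2 falls without miR-29a-3p library 2 or control 1 and 1 fall without control 2.

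Of 14 tested genes of the ERK feedback list, 2 rose and 0 fell in the A549-labelled libraries, against 7.3% and 8.66% of all genes (limma, list median 0.06, with 3 and 0 at an unadjusted p under 0.05). The list had 5 rises and 8 falls in the H1299-labelled libraries, against 25.1% and 24.8% of all genes (list median -0.29). The 5 rises there were 3 without any 1 of the 4 H1299-labelled libraries. DUSP6, the cytoplasmic ERK phosphatase, had the largest rise in the H1299-labelled libraries, with 4.77 and 4.43 FPKM against 1.71 and 1.30 FPKM (1.16 ± 0.123, SE, limma, adjusted p = 0.00044). It thus lay opposite to DUSP1 in the same libraries. IL11, a cytokine gene with AP-1 sites known from its promoter rather than a feedback inhibitor, had the largest fall there, with 28.1 and 26.3 FPKM against 81.9 and 77.6 FPKM (limma, adjusted p = 1.7e-05). It also had the largest rise in the A549-labelled libraries, though at low level, with 0.846 and 0.937 FPKM against 0.368 and 0.453 FPKM (limma, adjusted p = 0.0083).

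Of 23 tested kinases and factors upstream, 1 rose and 2 fell in the A549-labelled libraries, near the shares of 7.3% and 8.66% over all genes (list median -0.04). The list had 3 rises and 8 falls in the H1299-labelled libraries, against 25.1% and 24.8% of all genes (list median -0.14). NRAS, a small GTPase that activates the RAF kinases, had the largest fall in both lines. It stood at 17.9 and 20.4 FPKM with miR-29a-3p against 32.3 and 33.6 FPKM in A549-labelled controls (limma, adjusted p = 0.0013). NRAS in the H1299-labelled libraries stood at 13.3 and 13.4 FPKM with miR-29a-3p against 28.0 and 28.6 FPKM in controls (limma, adjusted p = 6.3e-05). BRAF had the single rise in the A549-labelled libraries, 0.34 ± 0.068 (SE, limma, adjusted p = 0.022), which did not pass without miR-29a-3p library 2, control 1 or control 2 (limma, adjusted p = 0.082, 0.07 and 0.098). The 2 falls there were 1 without any 1 of the 8 libraries. RPS6KA1, a kinase downstream of ERK, had the largest rise in the H1299-labelled libraries, with 3.87 and 3.94 FPKM against 1.75 and 2.17 FPKM (limma, adjusted p = 0.00067).

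Of 18 tested partners and antagonists of EGR1, AP-1 and MYC, 5 rose and 1 fell in the A549-labelled libraries, against 7.3% and 8.66% of all genes (list median 0.04). The list had 3 rises and 6 falls in the H1299-labelled libraries, near the shares of 25.1% and 24.8% over all genes (list median -0.19). NAB2, a co-repressor that binds EGR1 and is one of its targets, had the largest rise in the A549-labelled libraries, with 15.3 and 13.1 FPKM against 8.23 and 5.64 FPKM (0.96 ± 0.151, SE, limma, adjusted p = 0.01, and adjusted p = 0.061 without miR-29a-3p library 1). NAB2 was also called higher in the H1299-labelled libraries, with 9.38 and 9.49 FPKM against 6.14 and 6.02 FPKM (0.56 ± 0.151, SE, limma, adjusted p = 0.022), as EGR1 was. MAFK, a small MAF protein, had the largest fall in the H1299-labelled libraries, with 58.1 and 59.6 FPKM against 147.5 and 145.4 FPKM (limma, adjusted p = 1.6e-05). MXD4, an antagonist of MYC, had the largest rise there, 0.61 ± 0.078 (SE, limma, adjusted p = 0.001). MXD3, of the same family, had the single fall in the A549-labelled libraries, -0.37 ± 0.084 (SE, limma, adjusted p = 0.032), which did not pass without miR-29a-3p library 1 or 2, A549-labelled control 1 or either H1299-labelled control (limma, adjusted p = 0.056 to 0.13). The 5 rises in the A549-labelled libraries were 0 without miR-29a-3p library 1, 2 without miR-29a-3p library 2 or either control, and 3 without any 1 H1299-labelled library. In the H1299-labelled libraries the 3 rises were 1 without miR-29a-3p library 2 or control 1.

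Of 6 tested proteins that bind AU-rich elements and set the decay of early mRNAs, 1 rose and 2 fell in the A549-labelled libraries, against 7.3% and 8.66% of all genes (list median -0.08). The list had 3 rises and 1 fall in the H1299-labelled libraries, against 25.1% and 24.8% of all genes (list median 0.18). ZFP36L2 rose in the A549-labelled libraries, with 25.5 and 25.6 FPKM against 15.5 and 14.9 FPKM (0.71 ± 0.059, SE, limma, adjusted p = 0.0012). ZFP36L1 fell there, with 13.2 and 14.9 FPKM against 20.6 and 18.7 FPKM (limma, adjusted p = 0.037), a call lost without any 1 A549-labelled library or either H1299-labelled control (limma, adjusted p = 0.06 to 0.16). ZFP36, which encodes tristetraprolin and is itself an early gene, rose in the H1299-labelled libraries, with 26.8 and 12.7 FPKM against 6.09 and 6.63 FPKM (1.41 ± 0.29, SE, limma, adjusted p = 0.0075). Its treated libraries lay far apart, but both were above both controls. HNRNPD, a decay factor also called AUF1, fell there by 0.22 ± 0.063 on the log2 scale (SE, limma, adjusted p = 0.025), and did not pass without any 1 of the 4 H1299-labelled libraries (limma, adjusted p = 0.067 to 0.1), so that this list's fall there was then 0. The 2 falls in the A549-labelled libraries were 1 without A549-labelled control 1 or either H1299-labelled miR-29a-3p library and 0 without any other library, and the single rise was 2 without either H1299-labelled miR-29a-3p library.

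**Figure D4:**
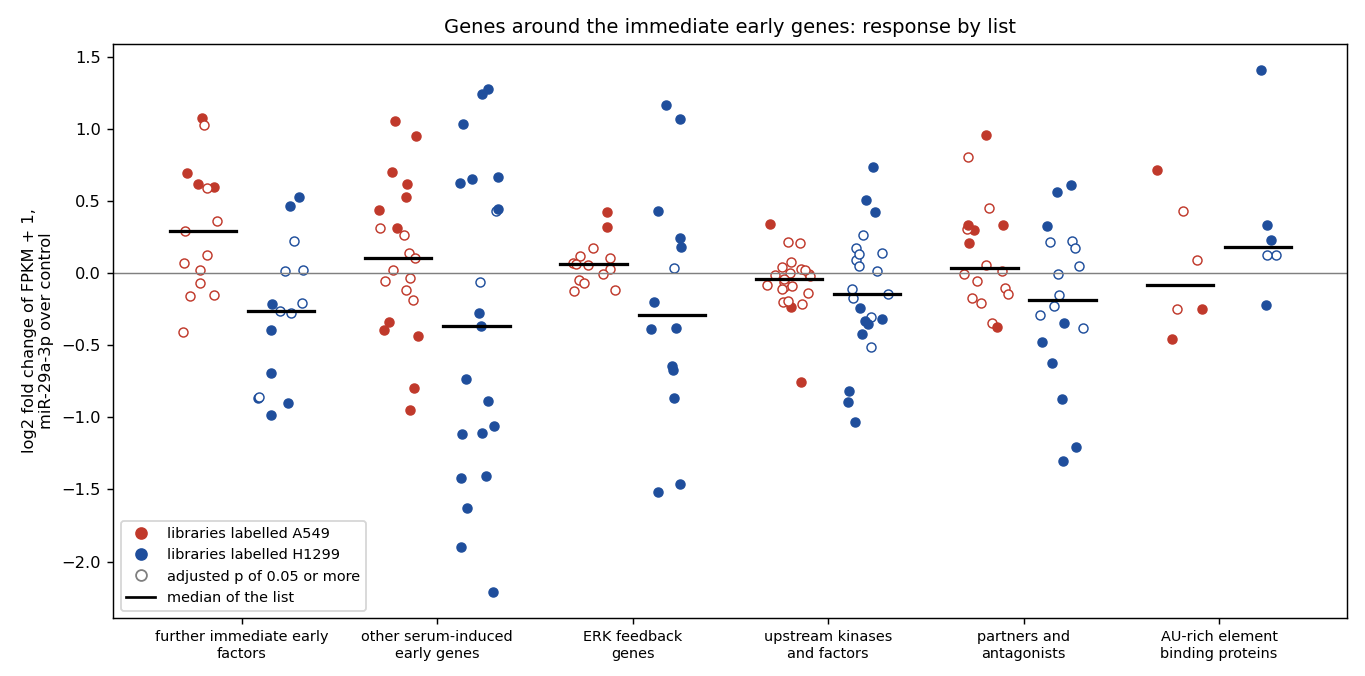
Log2 fold change of FPKM + 1, miR-29a-3p over control, of each tested gene in the 6 lists, with filled points for genes called by limma, open points for those not called and bars for the median of a list; red is A549-labelled, blue is H1299-labelled. Medians lie at 0.30 and -0.27 for further immediate early factors and at 0.11 and -0.37 for other serum-induced early genes, A549-labelled first.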

How the data were processed

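The values used are FPKM as deposited by the authors, in a single table by gene and library. StringTie and the build GRCh38 come from the submitters' processing notes; no source used here gives versions, the aligner, the annotation or the strand setting. Per the labels' protocols, RNA was extracted with TRIzol and libraries were made with a VAHTS Universal V6 kit.

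The test was limma 3.58.1 in R 4.3.3 on log2(FPKM + 1), a scale that understates changes of low genes. It covered the 14635 genes that reached 1 FPKM in 2 or more of the 8 libraries, with a mean per group, a mean-variance trend, a residual df of 4 and a prior df of 2.36. Every adjusted p is Benjamini-Hochberg adjusted over all genes tested. A gene absent from the table for 1 line was taken as 0 there. The fit was also run on simulated data with normal noise and 1 spread per gene. That run does not bear on genes such as IER2, whose spread differed between groups. Contrasts set miR-29a-3p over control within each line, the difference between these responses, and the controls of A549 over H1299. Estimated fragments follow from the value of 1 fragment per gene. Of low values of genes with 1 transcript, 98.8% to 99.1% came out whole within 0.05. Genes with more transcripts, such as FOS, FOSB and MYC, were given the joint length of all their exons. Their estimates are rougher and were not covered by that check. No count test was run, since the table holds FPKM. Libraries of a group differed by more than sampling noise (chi-square per df 2.189 to 3.885), so none was treated as 1 library deposited again; this does not show that they came from separate cultures. Positions are from GENCODE release 29. The gene most alike in pattern to DUSP1 is not reported here. All 10 genes are named; from each list, the called genes with the largest rise and fall in each line are named. The genes, lists and tests were chosen with earlier results of these data known. Alternatives were another pseudocount, other filters, rescaling, each line alone, no trend, a replicate block and leaving out each library.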

Additional observations from a re-analysis of the deposited data

Results flagged for a closer look

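For 6 of the 7 tested immediate early genes, the response to miR-29a-3p differed between the lines by a test of the difference itself (limma, A549 minus H1299, log2 scale). DUSP1 differed by 2.67 (adjusted p = 4.1e-05), IER3 by 1.16 (adjusted p = 0.00043), FOSL1 by 0.70 (adjusted p = 0.0014), JUN by 0.64 (adjusted p = 0.0011) and JUNB by 0.44 (adjusted p = 0.0065). These 5 calls were kept in all 14 alternatives that could be fitted. IER2 differed by -2.89 (adjusted p = 0.041), a call lost in 8 of 14 alternatives, among them the omission of any 1 A549-labelled library. Each of the H1299-labelled groups behind the IER2 value holds libraries that lie apart, at 3.12 and 15.7 FPKM with miR-29a-3p and at 3.52 and 6.88 FPKM in controls. What set the lines apart was not tested.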

How the results depend on the processing

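The direction and the call of EGR1 and JUNB in both lines, and of IER3, FOSL1, JUN and DUSP1 in the H1299-labelled libraries, were kept under all 15 alternatives. Over single immediate early genes and alternatives, 397 values kept their side of the threshold, 23 lost a call, 3 gained one and 2 changed sign. The 397 include the no-filter values of FOS, FOSB and MYC, which had no call in the main test to keep. The sign changes were FOSL1 in the A549-labelled libraries, -0.114 to 0.04 when 1 library was left out, and IER2 in the H1299-labelled libraries, -0.53 to 1.49, the lowest without miR-29a-3p library 2. IER3 passed in the A549-labelled libraries at a mean of at least 5 FPKM (limma, adjusted p = 0.042) and with rescaled libraries (limma, adjusted p = 0.049). With the A549-labelled libraries fitted alone, calls over all genes numbered 1071 rather than 2336, and those among immediate early genes 3 rather than 5. Leaving out 1 library gave 1066 to 1937 and 2 to 5. At a mean of at least 5 FPKM, where fewer genes are tested, calls over all genes numbered 3773 rather than 7312 for the H1299-labelled response, 2984 rather than 5464 for the difference and 4923 rather than 10941 for the controls. A replicate block gave 1969, 7134, 5202 and 10877 calls for the A549-labelled response, the H1299-labelled response, the difference and the controls, and 5, 6, 6 and 7 immediate early genes. Same-numbered libraries share only a number: their differences correlated at -0.037 to 0.063. For the lists, 608 counts stayed within 1.5 times and 100 moved. The difference between responses could not be fitted with a line alone. FOS, FOSB and MYC had 8.0 to 156.8 estimated fragments per library, the extremes being the MYC values of the H1299-labelled miR-29a-3p libraries, and passed no test with no filter on low values.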
